A study of Mus musculus with 11 samples.

Results

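Macrophage migration inhibitory factor (Mif), its close relative D-dopachrome tautomerase (Ddt), the receptor chain Cd74 and the intracellular MIF-binding protein Cops5 were followed in KP1 cells, a mouse small cell lung cancer (SCLC) line. The 4 genes, out of 35056 genes with a transcript in the files, were selected on the read counts of Mif in this same comparison, known from earlier results to be higher after irradiation, and on the part of the other 3 in the MIF signalling axis. Their own changes are therefore given as a description with no test. Bulk RNA sequencing covered 2 control libraries, numbered 2 and 3, of untreated KP1 cells, and 3 libraries, numbered 1 to 3, of KP1 cells that had received 5 Gy of radiation, with pellets taken at 24 h. KP1 is a single line that carries mutations of Rb and p53, grows in culture without stroma or immune cells and was kept in the same serum-containing medium in both groups. The 6 single-cell samples of tumour immune cells in the study were not analysed here. The labels do not say whether libraries of a group came from separate cultures, so the spread between them may be technical. In bulk libraries, fewer cells of a type and less RNA per cell cannot be told apart.

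MIF and DDT are small secreted proteins of the tautomerase superfamily that share a fold and act as cytokines. Both bind CD74, better known as the invariant chain that guides MHC class II molecules through the cell, and CD74 relays the signal through its partner CD44. MIF is also a ligand of the chemokine receptors CXCR2, CXCR4 and ACKR3. Inside cells, MIF binds COPS5, also called JAB1 or CSN5, which is the catalytic subunit of the COP9 signalosome and removes the small modifier NEDD8 from cullin ubiquitin ligases. In tumours, MIF is best known for its actions on macrophages and other CD74-bearing immune cells.

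Mif and Ddt lie on the same strand of one chromosome and both were higher in the irradiated libraries, so the stretches before their start sites are shown. In the GRCm38 build, Mif spans chr10:75859353-75860240 on the minus strand and Ddt spans chr10:75771230-75773414, also on the minus strand, 85.9 kb away. Each has 3 exons in its main transcript, of 544 bases for Mif and 649 bases for Ddt, which encode proteins from 345 and 354 coding bases. The sequences below are from RefSeq (GRCm38.p6), 5′ to 3′ on the strand of the gene. For Mif they cover the 250 bases before the RefSeq start, at chr10:75860278-75860527. For Ddt the 40 bases nearest the start lie inside the gene as GENCODE annotates it and are left out, which leaves 210 bases at chr10:75773415-75773624. Capitals mark letters found by a search of both strands for ACGTG (the hypoxia response core), CACGTG (an E-box, which contains ACGTG on both strands), TGACGTCA (the cyclic AMP response element) and GGGCGG (a GC box).
Mif: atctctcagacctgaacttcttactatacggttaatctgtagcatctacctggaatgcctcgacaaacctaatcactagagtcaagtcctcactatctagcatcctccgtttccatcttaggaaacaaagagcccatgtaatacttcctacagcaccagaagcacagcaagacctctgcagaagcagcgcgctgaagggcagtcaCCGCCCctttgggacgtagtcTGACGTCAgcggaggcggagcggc
Ddt: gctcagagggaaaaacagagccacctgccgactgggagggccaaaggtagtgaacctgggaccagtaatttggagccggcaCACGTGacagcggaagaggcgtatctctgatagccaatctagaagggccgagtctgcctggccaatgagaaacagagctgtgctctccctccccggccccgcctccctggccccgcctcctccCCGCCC

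The Mif stretch held TGACGTCA with its first letter at position −24, where −1 is the last base before the start, and a GC box on the minus strand at −45. The Ddt stretch held CACGTG at −169 and a GC box on the minus strand at −46. In the 50 bases after the RefSeq start, which are not printed, Mif had another GC box at 11 and ACGTG on the minus strand at 30. Both lie before the start of Mif as GENCODE annotates it, at 75860240, and so outside the gene span given above. Of 32544 promoters of the same 300 bases, 1.8% held TGACGTCA, 7.17% held CACGTG, 19.7% held ACGTG and 35.9% held GGGCGG on either strand. The GC content of the 300 bases was 54% for Mif and 62% for Ddt, against a median of 53% over all promoters. Each match is a description of the letters and shows no binding.

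Before the values, the libraries themselves need a description. They held 21185956 to 31036317 estimated reads, of which 14106 genes passed the filter on low counts. Averaged over reads, transcripts were 3625 to 3998 bases long in the irradiated libraries and 4729 bases in control replicate 3. Control replicate 2 stood apart, at 5463 bases, as the library richest in long transcripts. In the shortest decile of tested genes by main transcript (81 to 1151 bases), log2 fold changes of irradiated over control cells had a median of 0.83, against −0.82 in the longest decile (6520 to 123179 bases). Fold changes therefore moved with transcript length, and whether this length trend comes from the cells or from the libraries was not tested. The neuroendocrine markers of the line were present, with Chga, which encodes chromogranin A, at 278 to 475 TPM, an abundance scaled for transcript length and to an equal total in every library. Among these markers Syp and Calca rose in normalised counts (log2 fold changes 0.64, adjusted p = 0.0315, and 1.18, adjusted p = 0.0474, edgeR). In TPM both overlapped between groups. Syp was at 68.8 and 54.5 TPM in control and 73.9, 49.2 and 55 TPM in irradiated libraries. Calca was at 56.2 and 85.9 TPM against 163, 102 and 69.7 TPM. Ncam1 fell from 354 and 153 TPM in control to 78, 46.7 and 84 TPM in irradiated libraries (log2 fold change −1.20, adjusted p = 0.0227, edgeR). With a smooth term for transcript length in the fit, Syp, Calca and Ncam1 did not pass (adjusted p = 0.0781, 0.3 and 0.126, edgeR). The 8 leukocyte markers summed to 4.55 and 7.51 TPM in control and to 4.31, 2.36 and 2.74 TPM in irradiated libraries, with 3 to 6 of the 8 at 0 reads in each library. Adgre1, Csf1r and Lyz2 had 2 reads or fewer in every library, and Ptprc had 24 and 9 reads in control and 1, 8 and 5 in irradiated libraries. Cd68 was at 4.05 and 6.62 TPM in control and 1.6, 0.992 and 1.35 TPM in irradiated libraries, while Cd79a had 0 and 8 reads in control and 52, 21 and 26 in irradiated libraries. The part of these markers in the results below was not tested. The 4 fibroblast markers summed to 36.7 to 67.3 TPM, mostly from Pdgfra, with Dcn at 0 reads in 4 of the 5 libraries.

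Mif was among the most abundant transcripts of KP1 cells and was higher after irradiation. Its level was 599 and 954 TPM in control replicates 2 and 3, and 2146, 2107 and 1296 TPM in irradiated replicates 1, 2 and 3. All 3 irradiated libraries lay above both controls, with irradiated replicate 3 the lowest of them and control replicate 2 the lowest of all. The means were 776 ± 251 TPM (SD, n = 2) in control and 1850 ± 480 TPM (SD, n = 3) in irradiated cells, a 2.38-fold ratio of means. The mean control level exceeded that of 98.9% of the tested genes. Behind these levels stood 2464 and 3526 estimated reads in control and 8967, 7935 and 5836 in irradiated libraries, so counting error is small beside the spread between libraries. On the scale of normalised read counts (edgeR, TMM), which is not scaled for length, the log2 fold change was 1.51 (SE 0.29). Without control replicate 2 it was 1.25, and without control replicate 3 it was 1.87.

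Ddt followed the same direction from a far lower level. It was at 5.9 and 29.6 TPM in control replicates 2 and 3, and at 55.1, 68.5 and 33.2 TPM in irradiated replicates 1, 2 and 3. The irradiated libraries again lay above both controls, but irradiated replicate 3 exceeded control replicate 3 only narrowly, and as a ratio the controls differed from each other more than the irradiated libraries did. The means were 17.8 ± 16.8 TPM (SD, n = 2) in control and 52.3 ± 17.8 TPM (SD, n = 3) in irradiated cells, a 2.94-fold ratio. The control level stood near the middle of the tested genes, above 44.4% of them. Only 34 reads in control replicate 2 and 148 in control replicate 3 stood behind it, against 326, 367 and 209 in the irradiated libraries. The log2 fold change of normalised counts was 1.89 (SE 0.60), and control replicate 3 alone exceeded control replicate 2 by 2.15 on the log2 scale. The value was 1.18 without control replicate 2 and 3.40 without control replicate 3, so that the size of the Ddt difference depended on which control library was used.

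**Figure D1:**
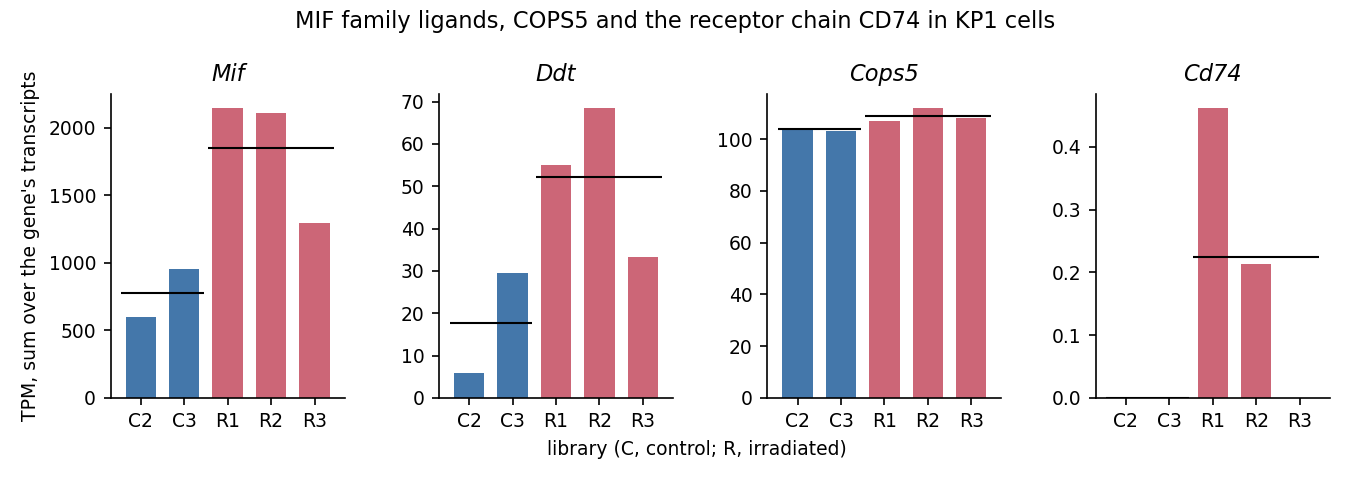
Level of each gene in TPM, summed over its transcripts, in control replicates 2 and 3 (C2 and C3, blue) and irradiated replicates 1 to 3 (R1 to R3, red), with black lines at the group means and a separate axis from 0 for each gene. Mif and Ddt were higher in all 3 irradiated libraries than in both controls, Cops5 stayed between 103 and 112 TPM, and Cd74 reached at most 0.462 TPM.

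Mif far exceeded Ddt in every library. The ratio of Mif to Ddt in TPM was 101 in control replicate 2, 32.2 in control replicate 3, and 39, 30.8 and 39.1 in the irradiated libraries. The irradiated ratios overlapped with control replicate 3, and the one ratio that stood apart was that of control replicate 2, the library with the fewest Ddt reads. The level of Mif relative to Cops5 was 5.75 and 9.25 in control, and 20.1, 18.9 and 12 in irradiated libraries, with no overlap between the groups. Mif was chosen on its counts in this comparison, so the separation is a description only. The main transcripts differ in length, 544 bases for Mif and 1698 for Cops5, and the part of the length trend in this ratio was not tested.

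Cops5 has a longer transcript of 1698 bases in 8 exons (chr1:10024601-10038168, minus strand, 1002 coding bases). In TPM it showed the most even level of the set. It was at 104 and 103 TPM in control replicates 2 and 3, and at 107, 112 and 108 TPM in irradiated replicates 1, 2 and 3. The irradiated libraries lay above both controls, but by a few TPM only. The means were 104 ± 0.745 TPM (SD, n = 2) and 109 ± 2.5 TPM (SD, n = 3), a 1.05-fold ratio. Normalised read counts were also taken as CPM, counts scaled to the library total after adjustment by the TMM factor of each library. They were 66.1 and 60.5 CPM in control and 84.9, 95.7 and 84.2 CPM in irradiated libraries. On this scale the groups were further apart, with means of 63.3 ± 3.94 (SD, n = 2) and 88.3 ± 6.45 CPM (SD, n = 3) and a log2 fold change of 0.48 (SE 0.15). The size of the Cops5 difference thus depended on the scale, a 1.39-fold ratio of mean CPM against a 1.05-fold ratio of mean TPM. Counts with an offset for effective length gave a log2 fold change of 0.42, and log2 TPM gave 0.07. TPM also sets every library to an equal total, and the source of the gap was not tested.

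Cd74 was almost undetected in KP1 cells. The gene (chr18:60803848-60812652, plus strand) had 0 reads in both control libraries, 7 and 3 reads in irradiated replicates 1 and 2, and 0 reads in irradiated replicate 3. In TPM this was 0 in both controls and 0.462, 0.213 and 0 in irradiated replicates 1, 2 and 3. The reads fell in irradiated libraries only, but irradiated replicate 3 had none and overlapped with the controls. A count of 0 allows up to 3 reads in a library (a limit for counting error only), which is the read count of irradiated replicate 2, so a difference of that size was not detectable at this depth. The gene did not pass the filter on low counts, no fold change was computed, and all its reads were assigned to Cd74-201, 1 of the 3 transcripts listed for it.

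Of the 4 genes, 3 passed the filter into the fit across all genes. Over all tested genes, 12.7% were called higher at an adjusted p under 0.05 (edgeR) and 13% lower, 25.6% in all. All irradiated libraries lay above both controls in 30.1% of the tested genes, as they did for Mif, Ddt and Cops5, and below both in 29.3%. Since the genes were chosen with this comparison known, nothing is read from these counts.

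Because short transcripts as a class were higher in the irradiated libraries, each gene was set against the 200 tested genes nearest to it in transcript length. Mif, at 544 bases shorter than all but 1.74% of the tested genes, was compared with genes of 474 to 625 bases. Their median log2 fold change was 0.99, and 46.5% of them were called higher and 5.5% lower. Mif, at 1.51, exceeded 163 of the 200 (81.5%) and lay 0.51 above their median. To take each library alone, the log2 level of every gene was centred on its own mean over the 5 libraries. So centred, Mif stood −0.47 and −0.19 from the median of the 200 genes in control replicates 2 and 3. In irradiated replicates 1, 2 and 3 it stood 0.41, 0.19 and −0.06 from that median. These values are shifts between libraries and do not give the level of Mif against those genes. The irradiated libraries stayed above both controls after this step, although irradiated replicate 3 came within a short distance of control replicate 3. With a smooth term for transcript length in the fit, the log2 fold change of Mif was 0.94 instead of 1.51.

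Ddt stood further out among its own length class. The 200 genes of 586 to 720 bases had a median log2 fold change of 0.89, with 43.5% called higher and 6% lower. Ddt exceeded 187 of them (93.5%) and lay 1.00 above their median. Library by library, log2 Ddt, centred in the same way, stood −1.66 and 0.11 from their median in control replicates 2 and 3. In the irradiated libraries it stood 0.57, 0.73 and 0.11 from that median. Relative to genes of its length, therefore, control replicate 3 and irradiated replicate 3 held the same level of Ddt, and the groups overlapped. With the smooth term for length its log2 fold change was 1.32, and its rank in the length class was 74.5% without control replicate 2 and 87.5% without control replicate 3.

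Cops5 did not stand out from genes of its length. Among the 200 genes of 1666 to 1731 bases, 26.5% were called higher and 1.5% lower, the median log2 fold change was 0.43, and Cops5 at 0.48 exceeded 110 of them (55%). With each gene again centred on its own mean, its distance from their median was 0.13 and −0.16 in control libraries. In irradiated libraries it was −0.04, 0.03 and 0.04, and the groups overlapped. With the smooth term for length, its log2 fold change was 0.05.

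**Figure D2:**
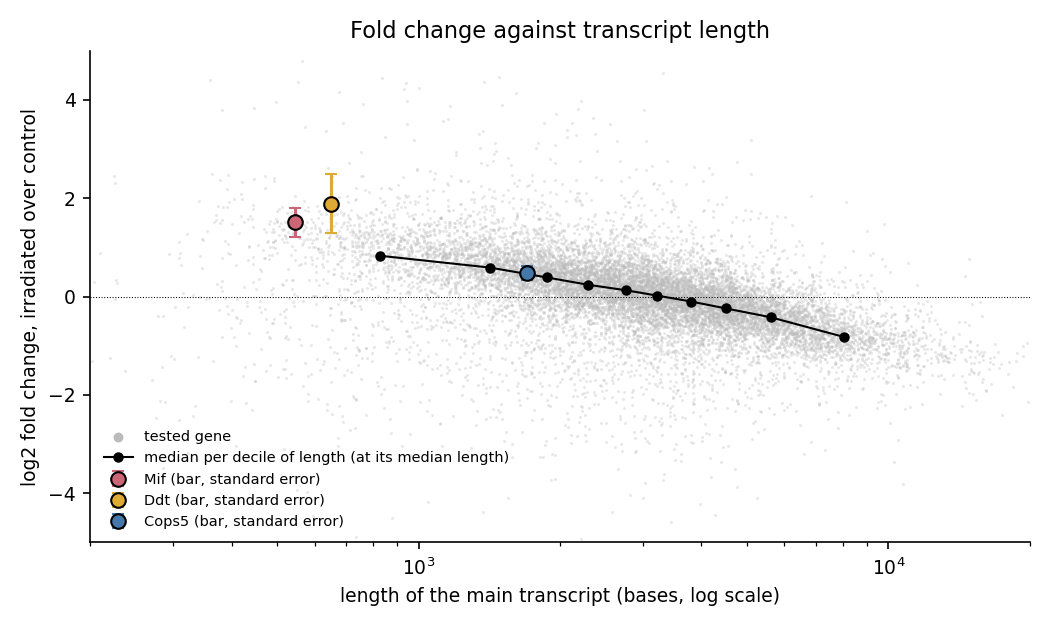
Log2 fold change of irradiated over control cells (vertical axis) against main transcript length in bases (log scale) for the tested genes, with the median of each length decile as a black line, and Mif, Ddt and Cops5 as coloured points with bars of 1 SE. The medians fall from 0.83 to −0.82 with length, Mif and Ddt lie above the line and Cops5 lies on it, and 30 genes beyond the vertical and 15 beyond the horizontal range are not drawn.

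**Figure D3:**
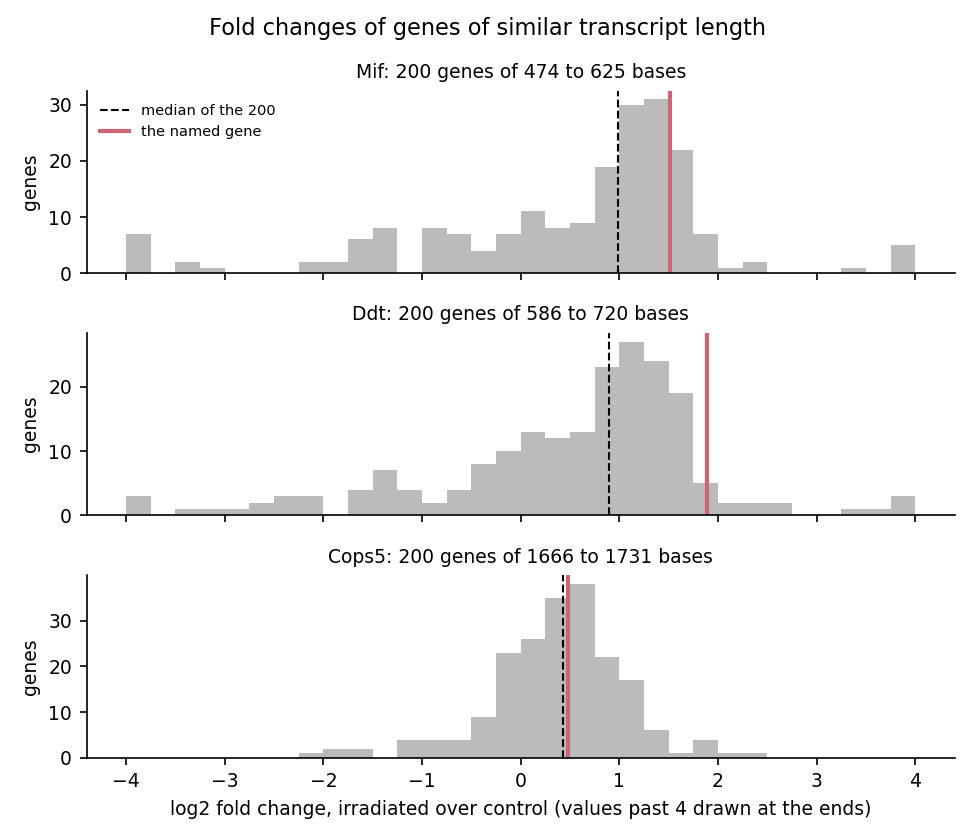
Number of genes (vertical axis) by log2 fold change among the 200 genes nearest in transcript length to Mif, Ddt and Cops5, with their median as a dashed line and the named gene as a red line. Mif and Ddt sit to the right of the medians of 0.99 and 0.89, with 81.5% and 93.5% of the genes below them, and Cops5 sits at the middle of its class.

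Those of the 37 genes above Mif in its length class that had the largest log2 fold changes rested on few control reads. They were Gm4294, a pseudogene read in 2 of the 5 libraries, Mgp at 5.10, Gm9803 at 4.79, Cox6b2 at 4.36 and S100a4 at 3.95. These had at most 21 reads in any control library, against 2464 or more for Mif. Of the 13 genes above Ddt, those with the largest log2 fold changes were Gm4294, Mgp, Gm10925, the peptide hormone gene Cck at 3.53 and Hmgb1-ps2. Each had 0 reads in control replicate 2, but Gm10925 had 2489 in control replicate 3 and 28121, 17245 and 16769 in irradiated libraries.

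The genes most like each member over the 5 libraries were found by the Euclidean distance between log2 CPM profiles centred on each gene's mean. Nearest to Mif were Gabarapl2 (distance 0.154), Uqcr10 (0.189), Ss18l2 (0.19), Magef1 (0.215) and Washc3 (0.217). Gabarapl2 encodes an autophagy protein and Uqcr10 a small subunit of respiratory complex III. Nearest to Ddt were 0610009B22Rik (0.174), Clybl (0.291), Psenen (0.301), Pomc (0.44) and Rrad (0.446). Psenen encodes a subunit of the gamma-secretase complex. Ddt itself ranked 3183 of 14105 genes by likeness to Mif, at a distance of 1.34, so many genes had a profile closer to that of Mif than Ddt had. Nearest to Cops5 were Atp6v1h (0.0571), a subunit of the proton pump of lysosomes, Tomm40 (0.0594), the channel of the mitochondrial outer membrane, Oat (0.0642), Rtn1 (0.0649) and Rabepk (0.0757).

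Around Mif on chromosome 10, the neighbours were a cluster of glutathione transferases towards Ddt and a mixed group on the other side. Of the 4 transferase genes between Ddt and Mif, Gstt4 had 0 reads in every library, Gstt3 had at most 7, and Gstt1 (log2 fold change 0.88, adjusted p = 0.31, edgeR) and Gstt2 (−0.66, adjusted p = 0.663) did not pass the test. On the other side, Derl3 (1.19, adjusted p = 0.15), Smarcb1 (0.23, adjusted p = 0.282) and Mmp11 (1.58, adjusted p = 0.0685) did not pass either. Chchd10, a mitochondrial protein gene, was at 6.6 and 8.34 TPM in control and 34.3, 24.3 and 11.6 TPM in irradiated libraries. It rose (log2 fold change 2.03, SE 0.46, adjusted p = 0.0181, edgeR), and with the smooth term for length it was at 1.38 with an adjusted p of 0.0848. Mif was the only one of these genes with more than 1000 reads in every library apart from Smarcb1, which encodes a core subunit of the SWI/SNF remodelling complex and was at 112 and 126 TPM in control and 131, 125 and 113 TPM in irradiated libraries.

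Reads of Mif can in part belong to copies of it. The genome holds processed pseudogenes of Mif whose sequence is 81.8% to 99.1% identical over stretches of 325 to 357 bases, but those listed in the files held at most 4 reads in any library. One annotated antisense transcript on chromosome 7, C230062I16Rik, is 99.4% identical to Mif over 508 bases (93.4% of the Mif transcript). No transcript of this copy was among those listed in the files, so its level could not be given. Reads from it, if any, could have been counted under Mif. For Ddt, Cd74 and Cops5 no such copy was found. The 5′ end of Cops5 overlaps Cspp1 on the opposite strand, which had 653 and 948 reads in control and 261, 357 and 405 reads in irradiated libraries. Since the libraries' strand setting is not given in the sources used here, reads in that overlap cannot be told apart.

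At the level of transcripts, Mif and Ddt each came from essentially one form. Mif-201 held 99.5% to 100% of the reads of Mif in every library, and Mif-202, a form with a retained intron, held at most 0.494%. Ddt-201 held 100% of the Ddt reads in control replicate 2, 85.5% in control replicate 3, and 100%, 99.6% and 99.2% in the irradiated libraries. The lower share in control replicate 3 came from 21.4 reads given to Ddt-202, and the groups overlapped. With the transcript as the unit, the log2 fold change was 1.72 (SE 0.35) for Mif-201 and 2.25 (SE 0.75) for Ddt-201.

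Cops5 was the member whose transcript mix differed between groups. Its main protein-coding form Cops5-201 held 76.9% and 74.6% of the Cops5 reads in control replicates 2 and 3, and 84.9%, 87.7% and 87.4% in irradiated replicates 1, 2 and 3. The irradiated shares lay above both controls, with means of 75.8 ± 1.63% (SD, n = 2) and 86.7 ± 1.54% (SD, n = 3). The 3 forms with a retained intron together held 7.91% and 8.57% of the reads in control and 2.17%, 2.77% and 2.56% in irradiated libraries, again without overlap. In reads these forms had 149 and 138 in control and 46.4, 58 and 59.2 in irradiated libraries, while Cops5-201 had 1451 and 1203 in control and 1810, 1837 and 2021 in irradiated libraries. The other protein-coding form, Cops5-205 of 771 bases, also lost share without overlap. It held 4.94% and 4.6% of the reads in control and 2.48%, 2.64% and 2.59% in irradiated libraries. Its mean share of TPM was 11.1% in control and 6.56% in irradiated cells. The 2 forms annotated as targets of nonsense-mediated decay, at 10.3% and 12.3% in control and 10.4%, 6.91% and 7.41% in irradiated libraries, overlapped between groups. As the unit of the fit, Cops5-201 had a log2 fold change of 0.89 (SE 0.13), Cops5-202 and Cops5-203, both with a retained intron, had −0.83 (SE 0.54) and −1.90 (SE 0.89), and the third retained-intron form, Cops5-207, had −0.82 (SE 1.13). These shares are Salmon's split of reads that the forms have in common, and the sum over all forms is what the gene level above gives.

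**Figure D4:**
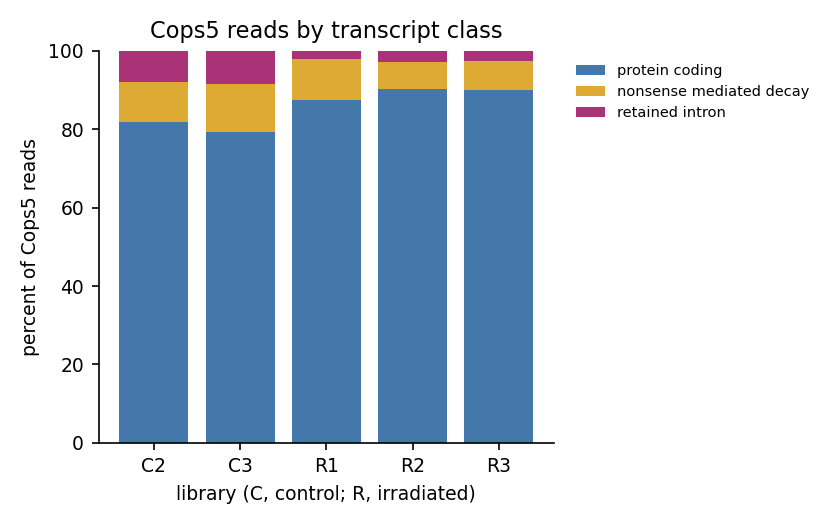
Share of Cops5 reads in percent (vertical axis) by annotated transcript class in control replicates 2 and 3 (C2 and C3) and irradiated replicates 1 to 3 (R1 to R3). The retained-intron share falls from 7.91% and 8.57% in control to 2.17%, 2.77% and 2.56% in irradiated libraries.

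Many other genes of these libraries had a lower retained-intron share too. Of 6826 protein-coding genes with at least 500 reads in every library, 1969 had a retained-intron share of at least 2% when both groups were averaged with equal weight, a set defined after the data were seen. In 61.2% of these 1969 all irradiated libraries lay below both controls, as for Cops5, and in 2.54% all lay above. Their median share was 7.24% in control and 3.19% in irradiated cells, a median log2 ratio of −1.11, and the log2 ratio of Cops5 was −1.68. A higher ratio than that of Cops5 was seen in 71.9% of these genes. Over the whole libraries, retained-intron transcripts took 2.35% and 2.69% of the reads in control and 1.23%, 1.76% and 1.55% in irradiated cells.

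The genes around the members in their pathway were taken from 6 lists of 60 genes, of which 49 were tested, and these lists too were drawn up with earlier results known. In all, 13 rose, 2 fell and 34 did not pass (edgeR, adjusted p under 0.05 over all genes, where 12.7% of all tested genes rose and 13% fell), with a median log2 fold change of 0.28 against 0.02 over all tested genes. With the smooth term for length 2 of them were called higher and 0 lower, against 2.99% and 2.16% of all tested genes (3 of the list genes lower at an unadjusted p under 0.05, and 3 lower at an adjusted p in DESeq2 without that term), and the median was 0.14 against 0.04. Without control replicate 2 the counts were 2 higher and 0 lower, without irradiated replicate 1 or 2 they were 6 and 0, without control replicate 3 they were 14 and 0, and without irradiated replicate 3 they were 11 and 1. All fold changes of list genes are log2 values of normalised counts, and near-identical copies of list genes were not searched, so that genes with many processed pseudogenes, such as Rps19, may share reads with them. Those called higher both with the length term and without control replicate 2 were Rps19 and Ctsl.

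None of the other receptors passed the test. Cd44, the signalling partner of CD74, was at 4.34 and 6.65 TPM in control and at 4.46, 3.72 and 4.82 TPM in irradiated libraries, with overlap and a log2 fold change of −0.04 (SE 0.22, adjusted p = 0.92, edgeR). Cxcr4 was the most abundant receptor, at 39.5 and 57.9 TPM in control and 62.3, 59.2 and 61.2 TPM in irradiated libraries. All its irradiated values lay above both controls, and the log2 fold change was 0.54 (SE 0.20, adjusted p = 0.0766, edgeR). Cxcr2, which binds both MIF and neutrophil-attracting chemokines, was at 0.448 and 0.583 TPM in control and 0.166, 0.122 and 0.0422 TPM in irradiated libraries. Its irradiated values lay below both controls on 2 to 23 reads, with a log2 fold change of −1.88 (SE 0.79, adjusted p = 0.113, edgeR). Ackr3, an atypical receptor that binds MIF, had 3 reads in irradiated replicate 1 and 0 elsewhere. At an unadjusted p under 0.05, 1 of the 3 tested receptors was higher and 1 lower in edgeR, DESeq2 called 0 at an adjusted p, and without control replicate 3 edgeR called Cxcr4.

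Among the other 9 subunits of the COP9 signalosome, 3 rose, 0 fell and 6 did not pass. Of all tested genes, 12.7% rose and 13% fell. The median log2 fold change of the 9 subunits was 0.38, or 0.12 with the smooth term for length. On normalised counts, all irradiated libraries lay above both controls in 8 of the 9, against 30.1% of all tested genes. With an offset for effective length, 3 subunits were again called higher and 0 lower. In TPM, which is also set to an equal total in every library, the subunits went in both directions, as given below. The source of this difference between scales was not tested. The largest change was that of Cops9, a very small subunit with a transcript of 438 bases, at 48.6 and 108 TPM in control and 172, 320 and 167 TPM in irradiated libraries (log2 fold change 1.64, SE 0.39, adjusted p = 0.0217, edgeR). Gps1, which is subunit 1, rose by 0.54 (adjusted p = 0.033) and Cops7a by 0.51 (adjusted p = 0.0438, both edgeR). Cops2, the highest in control at 214 ± 17.1 TPM (SD, n = 2), was at 0.14 (adjusted p = 0.491). Cops3, picked after its values were seen, was even in TPM like Cops5. It was at 147 ± 3.56 TPM (SD, n = 2) in control and 148 ± 1.2 TPM (SD, n = 3) in irradiated cells. Mean TPM was higher in irradiated cells for Gps1, Cops6, Cops7a and Cops9 (78.2 to 220). It was lower for Cops2 (214 to 185), Cops4, Cops7b and Cops8. For the direction lower, 0 subunits were at an unadjusted p under 0.05 in edgeR and 0 were called by DESeq2. With the length term 0 subunits were called higher (1 at an unadjusted p under 0.05, and 3 at an adjusted p in DESeq2 without that term). The count of 3 was 0 without control replicate 2 and 1 without irradiated replicate 1 or 2.

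COPS5 acts on cullins that carry NEDD8. Of 15 neddylation enzymes and cullins, 3 rose, 2 fell and 10 did not pass, with a median of 0.33. Over all tested genes 12.7% rose and 13% fell. Nedd8, the modifier that COPS5 removes from cullins, was at 53 and 118 TPM in control and 176, 275 and 140 TPM in irradiated libraries (log2 fold change 1.56, SE 0.36, adjusted p = 0.0188, edgeR). The RING subunits that pair with cullins rose too, Rnf7 by 1.21 (adjusted p = 0.0144) and Rbx1 by 0.91 (adjusted p = 0.0249). The cullin scaffolds Cul4b and Cul5 fell, at −0.46 (adjusted p = 0.0406) and −0.55 (adjusted p = 0.0332), and Cul3, the highest in control at 232 ± 16.8 TPM (SD, n = 2), was at −0.27 (adjusted p = 0.198). The 3 genes that rose have main transcripts of 824 to 1675 bases, and those of Cul4b and Cul5 have 3344 and 3585 bases. With the length term 0 were called in either direction (4 higher and 2 lower at an unadjusted p under 0.05, and 3 and 3 at an adjusted p in DESeq2 without that term). The 3 higher calls were 0 without control replicate 2, and the 2 lower calls were 0 without either control replicate or without irradiated replicate 1 or 2, and 1 without irradiated replicate 3.

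Of 8 proteins known to bind MIF inside cells, 3 rose and 5 did not pass, against 12.7% higher over all tested genes. Rps19, a ribosomal protein that also binds MIF, was at 455 and 615 TPM in control and 1472, 1947 and 1249 TPM in irradiated libraries (log2 fold change 1.67, SE 0.24, adjusted p = 0.00886, edgeR). Its groups were well apart, and with the length term it was at 1.01 with an adjusted p of 0.0292. The redox proteins Txn1 and Prdx1 rose by 1.49 (adjusted p = 0.0151) and 0.72 (adjusted p = 0.0366). In TPM Prdx1 overlapped between groups, at 297 and 446 in control and 430, 477 and 422 in irradiated libraries. Hsp90ab1, a chaperone and the highest of the list at 2985 ± 90.4 TPM (SD, n = 2) in control, was at 0.06 (adjusted p = 0.828). Without control replicate 2 only Rps19 of the 3 was called, and the list's median went from 0.24 to −0.03 with the length term.

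Downstream of the receptor, 1 of 6 tested genes rose, against 12.7% of all tested genes. This was Mapk3, which encodes the kinase ERK1, by 0.64 (SE 0.18, adjusted p = 0.0339, edgeR). It was at 117 and 169 TPM in control and 171, 173 and 146 TPM in irradiated libraries, which overlapped on this scale, and it was not called without control replicate 2, irradiated replicate 1 or irradiated replicate 2, nor with the length term. Akt1, the highest in control at 276 ± 9.85 TPM (SD, n = 2), was at 0.22 (adjusted p = 0.269). Ptgs2, which encodes cyclooxygenase-2, had 0 reads in every library.

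The class II chains that CD74 accompanies in antigen-presenting cells were not detected. Of 16 genes of MHC class II presentation and invariant chain processing, 8 were tested. H2-Aa, H2-Ab1 and H2-Eb1, the class II chains themselves, and Ctss, the protease that trims the invariant chain in antigen-presenting cells, had 0 reads in all 5 libraries. Ciita, the master activator of class II genes and of Cd74, was at 0.946 and 0.79 TPM in control and 0.245, 0.322 and 0.352 TPM in irradiated libraries. Its irradiated values lay below both controls, on 54 and 44 reads in control and 20, 22 and 22 in irradiated libraries. The log2 fold change of Ciita was −1.03 (SE 0.51, adjusted p = 0.166, edgeR), and −0.51 with the length term (adjusted p = 0.544, edgeR). Of the 8 tested genes, 3 rose, against 12.7% of all tested genes. Ctsl, a general lysosomal protease, was at 19.1 and 29.9 TPM in control and 57.6, 61.6 and 48.4 TPM in irradiated libraries (log2 fold change 1.68, SE 0.25, adjusted p = 0.00909, edgeR), and at 1.38 with an adjusted p of 0.0292 with the length term. Rfxap, a subunit of the RFX complex, rose by 0.81 (adjusted p = 0.0494) and Lgmn, an asparagine-specific protease of lysosomes, by 0.67 (adjusted p = 0.0455). Both overlapped between groups in TPM. Rfxap was at 60.6 in control replicate 3 and 60.3 in irradiated replicate 3, and Lgmn at 24.1 in control replicate 3 and 22.4 in irradiated replicate 1. With the length term Rfxap and Lgmn had adjusted p values of 0.129 and 0.183 (edgeR). Sppl2a, which cleaves the last membrane stub of CD74 and was the highest of the list at 83.5 ± 1.81 TPM (SD, n = 2) in control, was at −0.03 (adjusted p = 0.896). Without control replicate 2, irradiated replicate 1 or irradiated replicate 2, 1 of the 3 was called, and without irradiated replicate 3, 2 were.

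**Figure D5:**
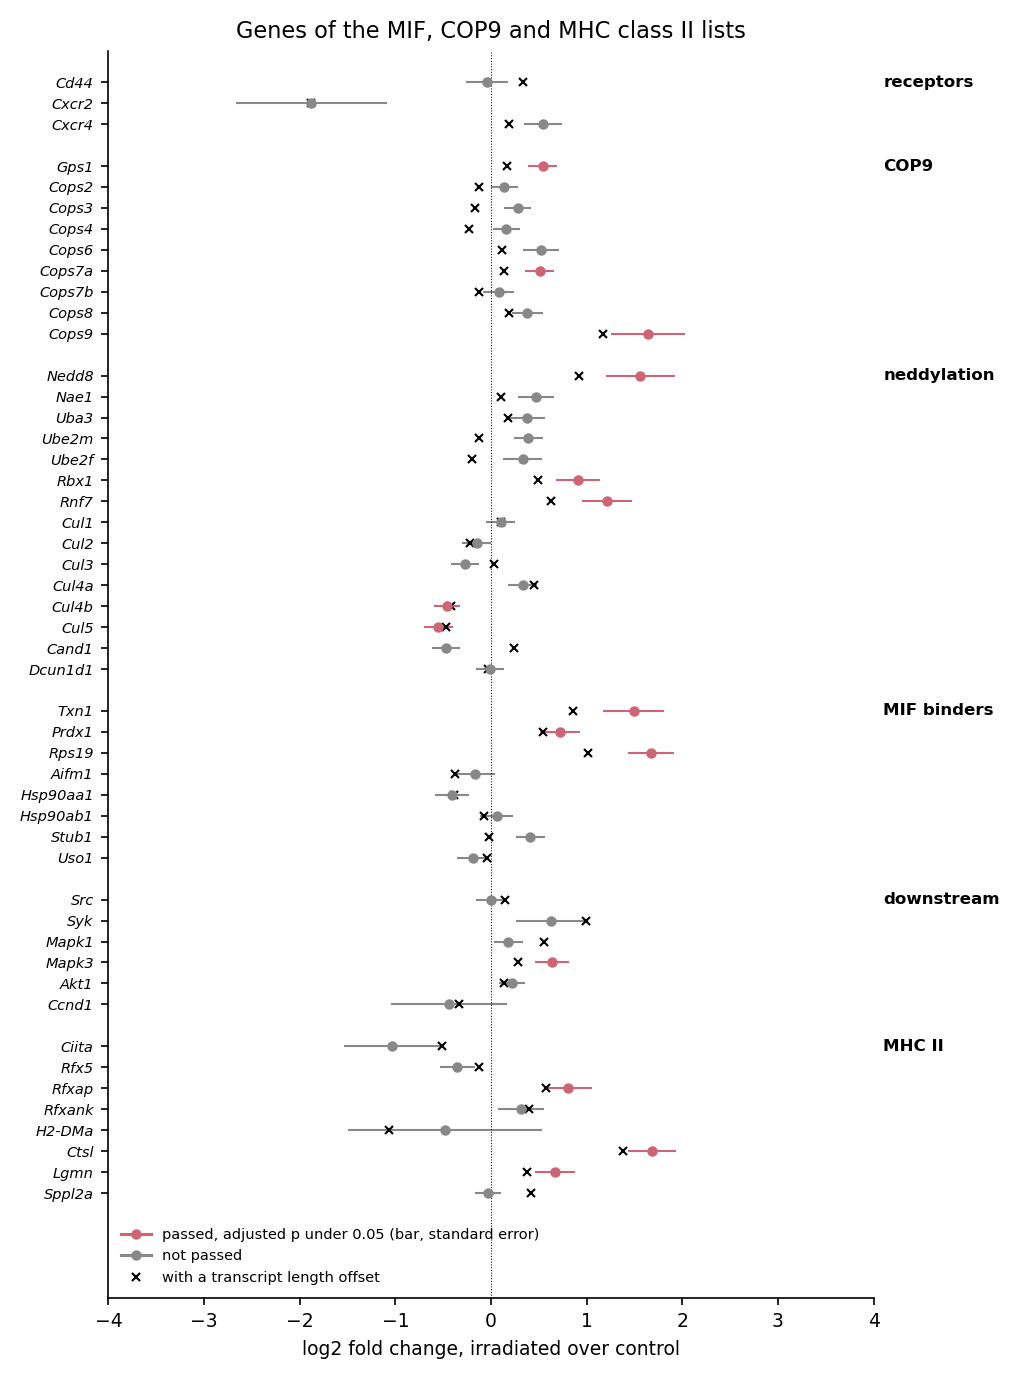
Log2 fold change of irradiated over control cells (horizontal axis) for the 49 tested genes of the 6 lists, with bars of 1 SE, red where the adjusted p was under 0.05 (edgeR), and crosses for the value with the smooth term for transcript length. Cops9, Nedd8, Txn1, Rps19 and Ctsl lie furthest to the right, and the crosses of Rps19 (1.01) and Ctsl (1.38) belong to the only genes still called with the length term.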

How the data were processed

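Reads of 5 KP1 libraries had been quantified by the authors with Salmon (version 0.8.2 in the submitters' processing notes) against mm10, without a stated annotation release. The deposited values are expected counts (estimated reads of each transcript, not normalized) and TPM, which the authors scaled within each library. The deposited files also give each transcript's length. Transcripts were matched to GENCODE M21 (112762 of 113116, 99.69%), and estimated counts were summed to genes and rounded. Groups came from the sample labels.

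Irradiated and control libraries were compared with edgeR 4.0.16 in R 4.3.3 (TMM, filterByExpr, quasi-likelihood test, Benjamini-Hochberg over all tested genes). The smooth term for length was an offset from a spline on main transcript length within each library. DESeq2 1.42.0, other offsets, a replicate block and leaving out each library were the alternatives. Copies were sought with blastn 2.17.0. The fits were tested on simulated counts. Named were the 4 members, the receptors, the list genes that passed, each list's highest gene in control TPM, 4 protein-coding neighbours on each side of Mif, 5 genes above Mif and Ddt in their length class, 5 nearest profiles, and near-identical genes. Other genes named, markers apart, were chosen after their values were seen. The members and lists were chosen with earlier results of these data known. Some of the marker genes are not reported here.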

Additional observations from a re-analysis of the deposited data

How the results depend on the processing

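The log2 fold changes of Mif, Ddt and Cops5 stayed above 0 in all 45 values from the alternatives. With the transcript length offset Mif was at 0.94 and Cops5 at 0.05, and with the replicate block and that offset together they were at 0.80 and 0.08. Cops5 was at 0.07 from log2 TPM and at 0.89 with the transcript as the unit. Leaving out each library in turn gave 1.25 to 1.87 for Mif, 1.18 to 3.40 for Ddt and 0.42 to 0.56 for Cops5. Leaving out a control leaves 1 control, which is then assumed to vary like the irradiated libraries. The share of genes of similar length below each member went from 72% to 85.5% for Mif, 74.5% to 96% for Ddt and 44.5% to 64% for Cops5 over the libraries left out, and that of Cops5 was 47% with lengths weighted by reads and 47% with classes matched on length and level. The share of Cops5-201 rose by 10.9 percentage points, or 14.9 from TPM, and by 9.77 to 12.1 without 1 library. The share of Mif-201 changed by −0.333 to 0.0667 points and turned to 0.0667 without control replicate 2. The share of Ddt-201 changed by −0.4 to 14.1 points and turned to −0.4 without control replicate 3.

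Of the 13 higher and 2 lower calls in the lists, the length offset left 2 and 0, the effective length offset left 0 lower and the fit with no filter on low counts left 1 lower. Leaving out 1 library left 2 to 14 higher and 0 to 1 lower. Over all genes, 1786 higher and 1827 lower calls became 422 and 305 with the length offset, and 95 to 2232 and 175 to 1977 without 1 library, the lowest without control replicate 2. Control and irradiated libraries share only the replicate numbers 2 and 3. The labels do not say that these numbers pair cultures, so they were not taken as pairs. The log2 ratio of replicate 2 to 3 in control correlated with that in irradiated libraries at −0.196 over 14106 genes. This cannot show whether cultures were paired, because the ratio between the controls also moved with transcript length. With the replicate block there were 602 higher and 494 lower calls over all genes and 6 and 0 in the lists. With the block and the length offset there were 0 higher and 2 lower over all genes, and 0 and 0 in the lists (edgeR, with 1325 higher and 953 lower over all genes and 7 and 0 in the lists at an unadjusted p under 0.05, against 2413 and 2292 calls by DESeq2 without either). With the numbers crossed, a pairing added after the data were seen, the block gave 3026 higher and 2670 lower calls over all genes, and 22 and 4 in the lists. The cause of these differences was not tested. Depth limits Ddt in control replicate 2 (34 reads) and Cd74 in every library.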
